A study of Mus musculus with 4 samples.

Results

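The genes described here are those whose RNA was lower in both libraries of 32Dcl3-Abl1ko cells growing without IL-3 than in both libraries of the same cells growing with IL-3. They were chosen by their read counts. For each gene, its level in CPM was computed as the count divided by the library's total count, times 1000000. A gene was kept when it had at least 5 CPM in both Abl1ko/IL3+ libraries and when its lower Abl1ko/IL3+ value was at least 4 times its higher Abl1ko/IL3- value plus 0.05 CPM. That ratio is called the separation below. In all, 45 genes of 23756 were kept, and 2 further genes were left out by name, of which 1 met the limits. Of the 9545 genes with at least 5 CPM in both Abl1ko/IL3+ libraries, the 45 members are 0.471%. The same rule turned around kept 25 genes with higher values without IL-3. Because the rule was selected on this contrast, the differences between the 2 groups are given as a description, with no test.

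32Dcl3 is a mouse hematopoietic cell line from bone marrow that needs the cytokine IL-3 to grow. All 4 libraries came from cells in which the tyrosine kinase gene Abl1 had been targeted with CRISPR/Cas9, so the controls carried the knockout as well. The Abl1ko/IL3+ group (2 libraries) grew with IL-3, and the Abl1ko/IL3- group (2 libraries) came from populations that had been withdrawn from IL-3 step by step and had become independent of it. The series describes biological duplicates, while the study describes 2 cell populations, each from 1 guide RNA. Its methods and a figure legend also speak of selected clones. The labels tie neither the populations nor the clones to libraries, and differences between clones were not tested. Spreads and tests therefore measure the variation between these libraries, whatever its source. The group with Abl1 in place and IL-3 was not analysed here.

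IL-3 binds a receptor made of a specific alpha chain and a shared beta chain and signals through JAK2 to STAT5, RAS-MAPK and PI3K-AKT. In immature myeloid cells this drives survival and division, and its removal normally leads to death. Cells that grow without it have been through a selection, and their RNA is that of a surviving population rather than of an acute withdrawal.

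Library totals ranged from 48953174 to 60382588 counts, and a count of 3 corresponds to between 0.0497 and 0.0613 CPM. Across 16535 tested genes, the log2 values of the Abl1ko/IL3+ libraries correlated at r = 0.93 and those of the Abl1ko/IL3- libraries at r = 0.963, while libraries of different groups correlated at r = 0.924 to 0.947. These are correlations across genes, which are not independent replicates. Abl1 itself was counted 1322 and 2222 times with IL-3 and 1544 and 2256 times without it, and since small edits need not remove a transcript, its count does not check the knockout. The labels call the cells pre-B, but of 9 pre-B cell markers the 6 measured ones summed to between 19.6 and 23.4 CPM, and Rag1 and Igll1 stayed under 1 CPM in every library. Markers of neutrophils summed to between 1927 and 5820 CPM. The summed markers of mast cells (110 to 812 CPM), neutrophils, monocytes (53.5 to 339 CPM), erythroid cells (198 to 6378 CPM) and megakaryocytes (596 to 806 CPM) overlapped between the groups. Those of pre-B cells (20.5 and 23.4 CPM with IL-3, 19.6 and 20.1 CPM without) and of T or NK cells (0.453 and 0.0994 CPM against 0.899 and 2.5 CPM, with 2 of 5 markers measured) did not overlap, and their part in the results was not tested. In bulk RNA, fewer cells of one type and less RNA per cell cannot be told apart.

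The separation of the 45 members ranged from 4.06 to 75.8, with a median of 6.58. It was at least 50 for 3 genes, at least 20 for 5, at least 10 for 11 and at least 6 for 26. On edgeR's log2 scale their fold changes, Abl1ko/IL3- against Abl1ko/IL3+, ran from -7.17 to -2.47 with a median of -3.70, against a median of -0.09 for all 9545 genes at that level. For 10 members the higher Abl1ko/IL3- library held less than 1 CPM, and for 20 it held less than 2 CPM. Together they made up 0.426% and 0.267% of all reads counted with IL-3, against 0.0238% and 0.0399% without it.

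In the comparison across all genes, the quasi-likelihood F test of edgeR, adjusted by Benjamini-Hochberg, called 0 of the 45 members and 0 of 16535 genes (0%), with a lowest adjusted p of 0.335. At an unadjusted p under 0.05 it listed 978 genes, and the 45 members were among them. DESeq2 called 160 genes lower without IL-3 at an adjusted p under 0.05, or 0.968% of the genes tested, and these held the 45 members. Both tests read the contrast by which the members were picked, so these counts carry no further information on them.

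**Figure D1:**
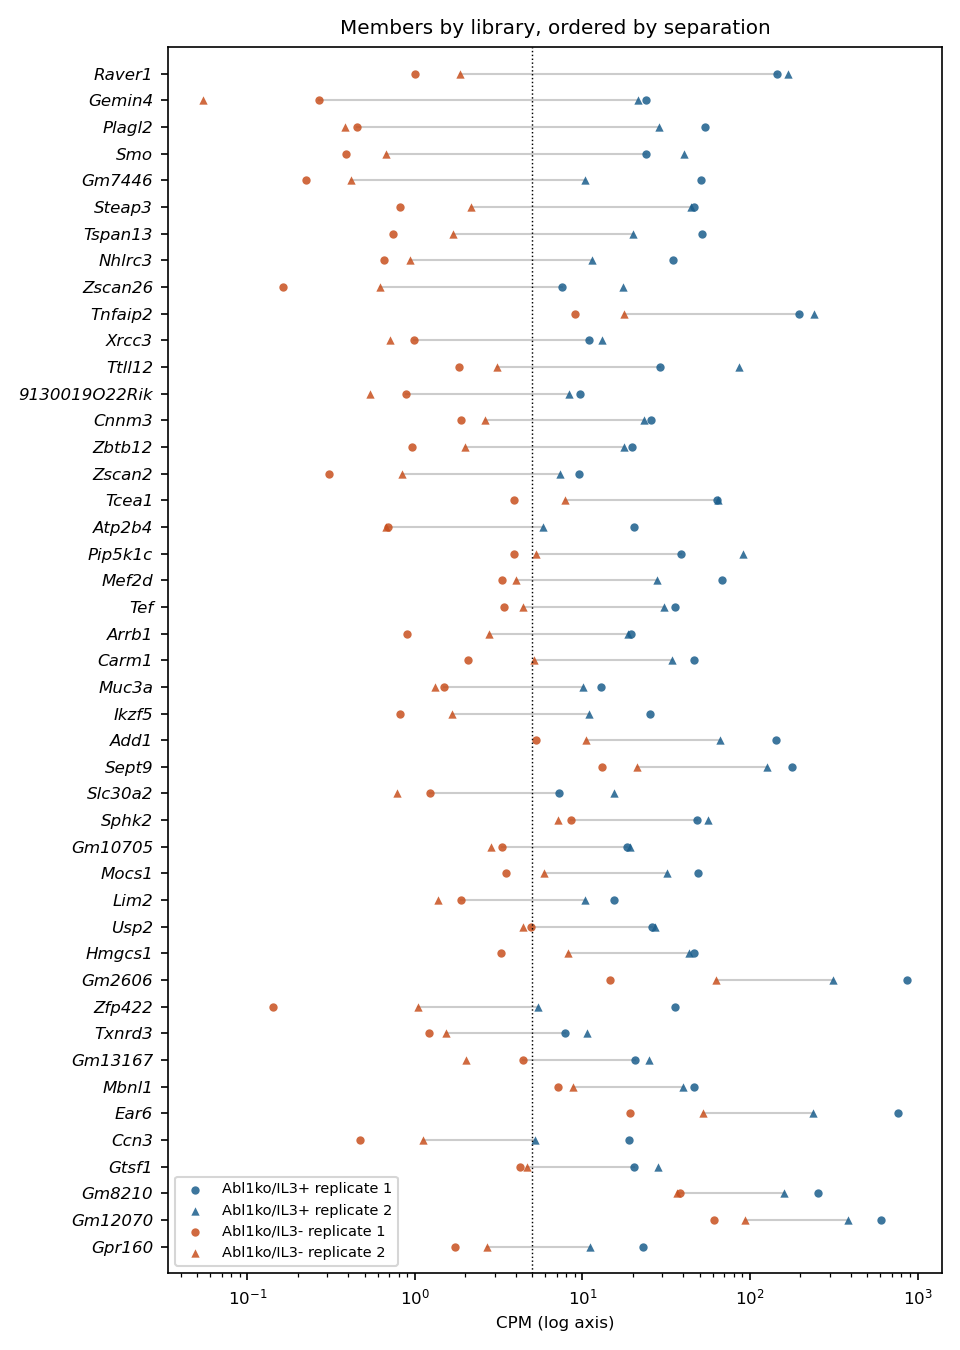
Level of each of the 45 members in each of the 4 libraries, in CPM on a log axis, ordered from the largest separation at the top to the smallest at the bottom. Blue marks are Abl1ko/IL3+, orange marks Abl1ko/IL3-, circles replicate 1 and triangles replicate 2; the grey line spans the gap between the groups and the dotted line marks 5 CPM. Separation runs from 75.8 for Raver1 to 4.06 for Gpr160.

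Genes of RNA handling and transcription held both of the largest separations. Raver1 (ENSMUSG00000010205, chr9:21074158-21092008, minus strand, build GRCm38) encodes an RNA-binding protein that works with the splicing repressor PTB. It was counted 8651 and 10184 times with IL-3 and 49 and 103 times without it, a log2 fold change of -6.84 ± 0.53 (SE, n = 2 libraries per group). Gemin4 (ENSMUSG00000049396, chr11:76210571-76217664, minus strand) encodes a subunit of the SMN complex, which loads Sm proteins onto spliceosomal RNAs. It was counted 1434 and 1297 times against 13 and 3 times (-7.17 ± 0.93). The libraries with IL-3 lay within 1.16-fold of each other for Raver1 and 1.12-fold for Gemin4, whereas those without IL-3 differed 1.82-fold and 3.03-fold, and the levels without IL-3 were at most 1.86 CPM and 0.266 CPM, respectively. With so few reads left, the fold change of Gemin4 was -8.74 without Abl1ko/IL3- replicate 1 and -6.39 without Abl1ko/IL3- replicate 2.

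The other 3 genes of this kind kept more RNA. Tcea1, the elongation factor TFIIS that rescues stalled RNA polymerase II, was counted 3784 and 3863 times with IL-3 and 190 and 436 times without it. Carm1, an arginine methyltransferase that acts on histone H3 and on splicing factors, was counted 2768 and 2061 times against 101 and 284 times. Mbnl1, a regulator of alternative splicing, was counted 2768 and 2397 times against 348 and 487 times, a separation of 4.48. Partners of these proteins had smaller fold changes. The PTB genes Ptbp1 (-0.02 ± 0.63) and Ptbp3 (0.07 ± 0.33) had fold changes near 0 on the log2 scale, and Ptbp2 had a positive one (1.08 ± 0.50). Of the SMN complex, Smn1 (-0.21 ± 0.42), Gemin2 (0.01 ± 0.42), Ddx20 (0.17 ± 0.33) and Strap (0.11 ± 0.35) stayed within 1 SE of 0, while Gemin5 was at -0.81 ± 0.50 and Gemin8, under 5 CPM in 1 library with IL-3, at -0.99 ± 0.48. Gemin8 was counted 412 and 282 times against 147 and 161 times. The groups of Gemin5 and of Gemin8 did not overlap in CPM.

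The counts of Raver1 and Gemin4 depend on how reads were shared with genes on the same strand. In GENCODE release M21, 99.7% of Raver1's exon bases are also exon bases of Gm38431 or Mir7082, and 89.8% of Gemin4's are also exon bases of Glod4. Gm38431 was counted 125 and 90 times with IL-3 and 184 and 574 times without it, the opposite order to Raver1. The sum of Raver1 and Gm38431 was 8776 and 10274 against 233 and 677, so it kept a separation of 11.97. Glod4, a glyoxalase-domain gene, was counted 4822 and 4950 times with IL-3 and 2735 and 3870 times without it. The sum of Gemin4 and Glod4 was 6256 and 6247 against 2748 and 3873, a separation of 1.48. Gemin4 took 22.9% and 20.8% of that sum with IL-3 and 0.473% and 0.0775% of it without. How reads in shared exons were assigned was not tested.

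The next group, 8 genes for DNA-binding transcription factors, had separations from 4.95 to 57.2 and a median log2 fold change of -3.90. Plagl2 (ENSMUSG00000051413, chr2:153227759-153241426, minus strand), a zinc finger factor of the PLAG family, was counted 3192 and 1724 times with IL-3 and 22 and 21 times without it (-6.62 ± 0.53). It overlaps no other gene in the table, and the Abl1ko/IL3- libraries gave nearly the same low count. Zscan26 and Zscan2, a pair of zinc finger genes with a SCAN domain, were counted 451 and 1056 times against 8 and 34 times, and 570 and 444 times against 15 and 46 times. Zbtb12, a BTB zinc finger gene in the MHC region, was counted 1178 and 1065 times with IL-3 and 47 and 110 times without it. Ikzf5, the Ikaros-family member Pegasus, had counts of 1518 and 656 against 40 and 92. In this set the lowest Abl1ko/IL3+ library was still above the highest Abl1ko/IL3- library by the limits of the rule, but the libraries of a group differed by different amounts.

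Zfp422, a further zinc finger gene, showed the widest spread of all members, and was counted 2129 and 328 times against 7 and 58 times. Its Abl1ko/IL3+ libraries differed 6.57-fold and its Abl1ko/IL3- libraries 5.69-fold in CPM, so the group difference of -5.08 ± 1.35 has the largest error among the members. Mef2d, a MADS-box factor of the MEF2 family, was counted 4073 and 1681 times against 163 and 223 times. Its relative Mef2a had a fold change of -0.26 ± 0.38. Tef, a PAR-domain bZIP factor with daily cycling in many tissues, was counted 2120 and 1840 times against 167 and 245 times. Of the related bZIP genes, Dbp was at -0.75 ± 0.39 and the repressor Nfil3 at 0.13 ± 0.55. The Ikaros-family gene Ikzf2 was at -0.95 ± 0.58 with overlapping groups.

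Promoter sequences of the members were read from RefSeq windows in build GRCm38.p6, which reach 250 bases before to 50 bases after a gene's start. A window was found for 32 of the 45 members and for 7251 of the genes at 5 CPM or more. For 4 members of large separation, the 150 bases just before the start are shown. These genes had the largest separations among the members whose RefSeq start lay within 20 bases of the start in the table and whose stretch holds no annotated exon. Capitals mark matches to the motifs searched.
Raver1, chr9:21092009-21092158, minus strand: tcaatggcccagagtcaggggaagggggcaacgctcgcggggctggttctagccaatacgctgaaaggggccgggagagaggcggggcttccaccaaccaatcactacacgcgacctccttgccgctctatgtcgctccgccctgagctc
Smo, chr6:29735347-29735496, plus strand: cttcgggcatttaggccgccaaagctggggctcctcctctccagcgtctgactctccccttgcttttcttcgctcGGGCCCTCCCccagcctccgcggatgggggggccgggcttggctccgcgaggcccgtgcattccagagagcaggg
Steap3, chr1:120271083-120271232, minus strand: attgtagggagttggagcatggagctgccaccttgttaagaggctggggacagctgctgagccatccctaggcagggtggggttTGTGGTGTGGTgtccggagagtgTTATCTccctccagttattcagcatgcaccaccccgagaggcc
Zscan26, chr13:21453731-21453880, minus strand: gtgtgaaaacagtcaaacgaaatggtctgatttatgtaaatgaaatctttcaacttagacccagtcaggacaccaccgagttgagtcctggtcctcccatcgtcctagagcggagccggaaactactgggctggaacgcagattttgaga

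Both strands of each window were searched for 8 motifs, which can overlap one another. The STAT motif TTCNNNGAA was found in 3 of 32 members (9.38%) and in 6.73% of all 7251 windows, and it lay in Ttll12, Ikzf5 and Mbnl1. The GATA motif, AGATAA or TGATAA, was in 9.38% of the members and 9.27% of all windows. The RUNX motif TGTGGT was in 7 members (21.9%) against 12.3%, the NF-kappaB motif (GGGA, 4 free bases and CC) in 18.8% against 25.7%, and the E-box CACGTG in 12.5% against 10.9%. The PU.1 motif GAGGAAGT, the C/EBP motif TTGCNNCAA and the AP-1 motif TGANTCA had 0 matches in 32 members, against 3.34%, 1.65% and 4.26% of all windows. In Steap3 a pair of overlapping RUNX matches and a GATA match lay within the stretch shown, and in Smo an NF-kappaB match. The GC content of the windows had a median of 62.8% in the members and 61.3% in all. These are counts of letters and say nothing of whether a factor binds.

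Receptors and signalling proteins made up 7 members. Smo (ENSMUSG00000001761, chr6:29735503-29761365, plus strand), the membrane protein that relays the Hedgehog signal, was counted 1438 and 2440 times with IL-3 and 19 and 37 times without it, a log2 fold change of -6.01 ± 0.65 and a separation of 33.5. Without Abl1ko/IL3+ replicate 2 the fold change was -5.42. Other genes of its pathway showed no gap of this size. Ptch1, the Hedgehog receptor that holds Smo inactive, was counted 1622 and 910 times against 1318 and 1784 times, and its groups overlapped in CPM. Sufu, a further inhibitor, was counted 1779 and 1597 times against 1086 and 1247 times. It was lower in both libraries without IL-3, with a separation of 1.17. The target gene Gli1 had at most 33 counts in any library.

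Tnfaip2, a gene induced by TNF in myeloid cells, was counted 11730 and 14591 times against 441 and 982 times (-4.11 ± 0.50). Pip5k1c, a kinase that makes the lipid PI(4,5)P2 on which PI3K acts, was counted 2304 and 5471 times against 190 and 291 times. The kinases Pip5k1a (-1.51 ± 0.50) and Pip5k1b (-1.69 ± 0.80) also had negative fold changes. Pip5k1a was counted 2341 and 942 times against 446 and 555 times, with no overlap between groups, whereas the groups of Pip5k1b overlapped in CPM. Arrb1 (beta-arrestin 1), which silences and reroutes G-protein-coupled receptors, was counted 1166 and 1133 times against 44 and 152 times. Its paralog Arrb2 was counted 11289 and 13834 times against 12259 and 14033 times, so the other beta-arrestin showed no such gap.

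Sphk2, which makes sphingosine 1-phosphate, was counted 2896 and 3381 times with IL-3 and 416 and 395 times without it. Of its exon bases, 21.9% lie opposite exons of Dbp and Rpl18 on the other strand, and whether the counting used strand is not given in the sources used here. Ccn3, a secreted matrix-associated protein, was counted 1131 and 315 times against 23 and 62 times, and the orphan receptor gene Gpr160 1365 and 672 times against 85 and 149 times. Both lay near the limits of the rule, Ccn3 by its level (5.22 CPM in the lower Abl1ko/IL3+ library) and Gpr160 by its separation. Just outside the 4-fold limit lay Tmem9 (3.96), Lipc (3.72) and Nim1k (3.69), and just inside it Gm8210 (4.17), Gm12070 (4.11) and Gpr160 (4.06). Members and genes next to the limit thus differed little in separation.

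Membrane and transport genes formed a set of 7, with separations from 5.40 to 19.98. Steap3, an endosomal ferrireductase that frees iron taken up with transferrin, was counted 2745 and 2677 times with IL-3 and 40 and 120 times without it (-4.98 ± 0.62). Its Abl1ko/IL3+ libraries agreed within 1.04-fold in CPM, its Abl1ko/IL3- libraries differed 2.56-fold, and without Abl1ko/IL3- replicate 2 the fold change was -5.77. Tspan13, a tetraspanin, was counted 3090 and 1210 times against 36 and 93 times. Cnnm3, of the cyclin M family linked to magnesium transport, was counted 1520 and 1407 times against 92 and 144 times. Its family member and neighbour Cnnm4 was counted 607 and 355 times against 13 and 352 times, so 1 library without IL-3 was low and the other was not.

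The calcium pump gene Atp2b4 was counted 1210 and 349 times with IL-3 and 34 and 37 times without it, while the related pump Atp2b1 was at -0.21 ± 0.44. Slc30a2, a zinc transporter of vesicles, was counted 433 and 930 times against 60 and 43 times. The other 5 zinc transporters of its family measured at 5 CPM or more had fold changes from -0.08 to 0.79. Lim2, known as a lens fibre membrane protein, had 922 and 629 counts against 92 and 76, and the mucin gene Muc3a 767 and 607 against 73 and 73. The libraries without IL-3 were alike for both of these genes.

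Genes of the cytoskeleton were 3. Add1 encodes alpha-adducin, which caps actin filaments and ties them to spectrin, and it was counted 8499 and 3981 times against 259 and 584 times. Its relative Add3 was at -0.06 ± 0.33. Sept9, a septin, was counted 10687 and 7674 times with IL-3 and 644 and 1175 times without it. Ttll12, a tubulin tyrosine ligase-like gene, was counted 1737 and 5174 times against 90 and 170 times.

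Among 4 genes for metabolic enzymes and DNA repair, Hmgcs1 was on 1 of 18 gene lists drawn up for hematopoietic cells, cytokine signalling and metabolism. Those lists hold 560 genes, of which 284 had at least 5 CPM in both Abl1ko/IL3+ libraries, and the 1 member among the 284 (0.352%) is close to the 0.471% among all genes at that level. On these lists 0 of the 430 tested genes had an adjusted p under 0.05 by edgeR, against 0 of all 16535 genes tested. The count therefore says nothing about the lists. Hmgcs1 makes HMG-CoA, the precursor of cholesterol, and was counted 2760 and 2613 times with IL-3 and 160 and 452 times without it (-3.03 ± 0.55, and -3.76 without Abl1ko/IL3- replicate 2). Sqle, an enzyme further down the cholesterol pathway, was counted 3289 and 4331 times against 3309 and 2734 times (-0.17 ± 0.40). Of the genes for fatty acid synthesis, Acly was at -0.08 ± 0.32 and Fasn at -0.37 ± 0.36. The groups of Sqle, Acly and Fasn overlapped in CPM.

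Xrcc3, a gene for DNA repair by homologous recombination, was counted 648 and 791 times against 48 and 39 times (-3.87 ± 0.56). Of related repair genes, Rad51d was counted 2081 and 1518 times against 586 and 655 times (-1.36 ± 0.36), with a separation of 2.09, and Xrcc2 was at -0.53 ± 0.39 and Rad51b at 0.61 ± 0.45. Mocs1, for the first step of molybdenum cofactor synthesis, was counted 2934 and 1933 times against 170 and 324 times, and Mocs2, for the next step, was at 0.01 ± 0.37. Txnrd3, a thioredoxin and glutathione reductase, was counted 466 and 644 times against 59 and 85 times.

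The remaining 5 coding genes are of mixed kind. Ear6, of the eosinophil-associated ribonuclease family, was counted 45777 and 14268 times against 945 and 2917 times (-3.80 ± 0.76). The libraries of each group differed 3.25-fold and 2.73-fold in CPM, and the fold change was -2.89 without Abl1ko/IL3+ replicate 1 and -4.62 without Abl1ko/IL3- replicate 2. Usp2, a deubiquitinase, was counted 1560 and 1647 times against 240 and 244 times, with at most 1.11-fold between the libraries of a group. Nhlrc3 had 2063 and 688 counts against 32 and 52, Gtsf1, known from the piRNA pathway of germ cells, 1212 and 1709 against 206 and 259, and 9130019O22Rik 575 and 503 against 43 and 30.

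Processed pseudogenes made up 6 of the 45 members (13.3%), against 4.65% of the other 9500 genes at 5 CPM or more. Such copies come from a spliced RNA of a coding gene put back into the genome, so a read can match both. All 6 matched other transcripts at 95% identity or more over at least 90% of their length, Gm2606 and Gm12070 those of Gapdh, Gm8210 of Rpl29, Gm13167 of Hmgb2, Gm10705 of Ube2l3 and Gm7446 of Hnrnpf. The 80-base stretches below come from GENCODE release M21 transcripts, with capitals where the aligned sequences differ. Each was picked as the stretch of the source's coding part with the most differences, summed over the copies shown after that source. It is thus not typical of the whole, and a single copy can differ more elsewhere.
Gapdh: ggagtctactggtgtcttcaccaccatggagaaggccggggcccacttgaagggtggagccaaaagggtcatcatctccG
Gm2606, chr15:12575170-12575249, plus strand: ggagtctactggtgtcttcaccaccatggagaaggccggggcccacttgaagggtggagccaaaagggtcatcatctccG
Gm12070, chr11:26786914-26786993, plus strand: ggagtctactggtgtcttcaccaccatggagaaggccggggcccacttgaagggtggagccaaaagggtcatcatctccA
Rpl29: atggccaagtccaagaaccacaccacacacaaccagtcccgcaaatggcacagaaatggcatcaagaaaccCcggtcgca
Gm8210, chr1:43189156-43189235, plus strand: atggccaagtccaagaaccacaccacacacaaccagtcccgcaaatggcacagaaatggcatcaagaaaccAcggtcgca
Hnrnpf: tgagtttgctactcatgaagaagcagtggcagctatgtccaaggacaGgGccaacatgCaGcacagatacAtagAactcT
Gm7446, chr13:13890922-13891001, minus strand: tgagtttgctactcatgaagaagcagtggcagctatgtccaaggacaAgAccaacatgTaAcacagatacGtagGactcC

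In these stretches Gm2606 has 0 differences from Gapdh, Gm12070 has 1, Gm8210 has 1 from Rpl29 and Gm7446 has 7 from Hnrnpf. Over the whole match, identity to the source was 99.9% for Gm2606 and Gm12070, 99.38% for Gm8210 and 98.07% for Gm7446. Gm2606 was counted 51494 and 18785 times with IL-3 and 713 and 3455 times without it, and Gm12070 35959 and 23189 times against 2984 and 5169 times. Gapdh, the glycolytic enzyme gene at 99.9% identity, was counted 18569 and 32233 times against 27027 and 53263 times (0.75 ± 0.50). In CPM Gapdh was higher in both libraries without IL-3, with no overlap of the groups. Summed over Gm2606 and the 66 genes alike, the total was 4504 and 2795 CPM with IL-3 and 1446 and 2817 CPM without it, so the groups overlapped. Gm2606 took 19.2% and 11.1% of that total in the Abl1ko/IL3+ group against 1.01% and 2.22% in the other. Gm12070 took 13.4% and 13.7% against 4.22% and 3.32% of nearly the same total. Each of these copies is counted in the other's sum, so they are not separate cases. The share assigned to these copies differed between the groups, while the whole overlapped, and how reads were assigned among the copies was not tested.

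Gm8210 (15237 and 9630 counts against 1869 and 2026), Gm13167 (1234 and 1515 against 216 and 112) and Gm10705 (1103 and 1168 against 161 and 158) also had totals, over each copy and the genes alike, that overlapped between groups. The total for Gm8210 was 832 and 1459 CPM with IL-3 and 876 and 913 CPM without it. The coding genes themselves differed in their order. Rpl29, a ribosomal protein gene, was counted 998 and 2105 times against 38 and 784 times (-1.92 ± 1.30), with no overlap of the groups in CPM. Ube2l3, a ubiquitin-conjugating enzyme gene, was counted 1756 and 2751 times against 7489 and 3053 times (1.42 ± 0.65). It was higher without IL-3, also with no overlap in CPM. Hmgb2, a chromatin protein gene, was at 0.08 ± 0.35. For Gm7446 the total differed as well. It was counted 3021 and 621 times against 11 and 23 times, and Hnrnpf, an RNA-binding protein gene, 49969 and 33490 times against 16238 and 8461 times (-1.52 ± 0.51). The total over Gm7446 and the genes alike was 892 and 566 CPM against 339 and 155 CPM, a separation of 1.67. Of Gm7446's exon bases, 71.8% lie opposite an exon of Gm47882, which was counted 1548 and 221 times against 106 and 226 times.

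**Figure D2:**
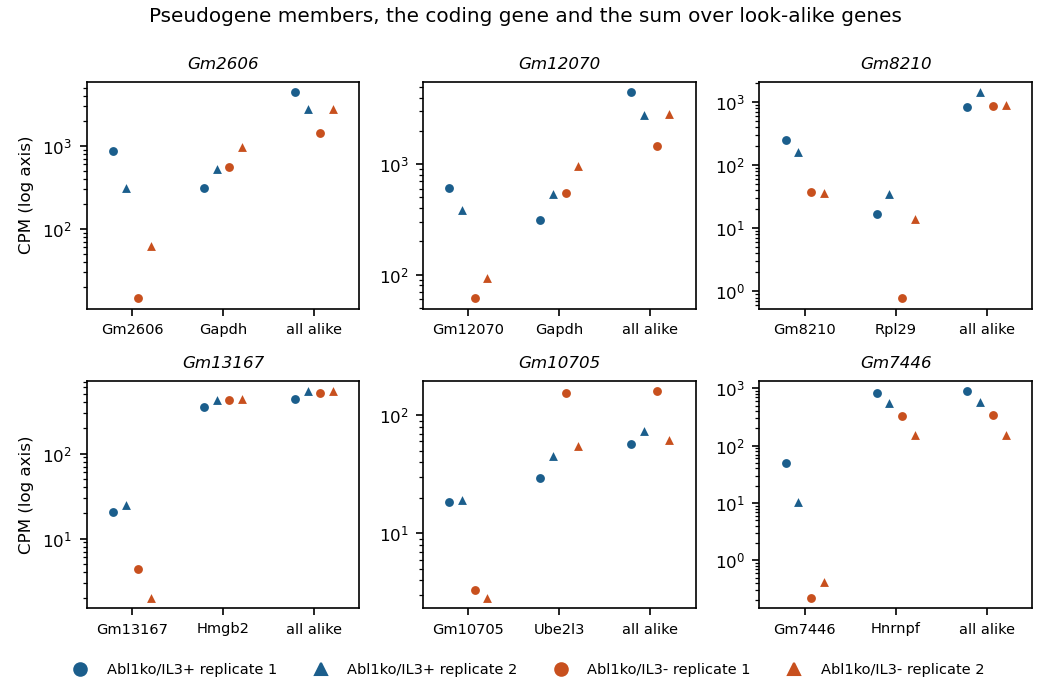
Levels in CPM (log axis) of each of the 6 pseudogene members, of the coding gene they resemble, and of the sum over the member and all genes alike, with 1 mark per library (blue Abl1ko/IL3+, orange Abl1ko/IL3-, circle replicate 1, triangle replicate 2). The sum overlaps between groups in 5 of the 6 panels and is lower without IL-3 for Gm7446, at 339 and 155 CPM against 892 and 566 CPM. The panels of Gm2606 and Gm12070 show nearly the same sum, that of the Gapdh copies.

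Overlap with other genes was counted for the members only. No share over all genes stands beside these counts, so they do not set the members apart. By span, 8 members overlapped another gene on the same strand and 20 on the opposite strand, so that 26 overlapped any gene and 19 none. By exon bases, 5 shared some with a gene on the same strand, and Raver1 and Gemin4 shared over 10%. On the opposite strand 16 shared some, and 7 over 10%, among them Ikzf5 (84.5%, with Pstk and Gm44624) and Gemin4 (78.5%, with Fam57a and Dbil5). Pstk was counted 456 and 543 times with IL-3 and 734 and 687 times without it, and Fam57a 523 and 332 times against 515 and 676 times, so neither partner shared the members' order of the groups.

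The rule set limits on the lower Abl1ko/IL3+ and the higher Abl1ko/IL3- library but not on the ratio between libraries of a group, which is given here as a description. Between the Abl1ko/IL3+ libraries the members had a median ratio of 1.41, against 1.55 for the other 9500 genes. Between the Abl1ko/IL3- libraries the median ratio was 1.64, against 1.21. A ratio of 2 or more between the Abl1ko/IL3- libraries was found for 15 members (33.3%) and 8.67% of the other genes, and between the Abl1ko/IL3+ libraries for 16 members (35.6%) and 27.99%. The low counts of the members without IL-3 go with a larger relative counting error, and its part in this was not tested. Without IL-3, 32 members were higher in replicate 2 (71.1%, against 58.6% of the other genes), and with IL-3, 30 were higher in replicate 1 (66.7%, against 60.1%).

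**Figure D3:**
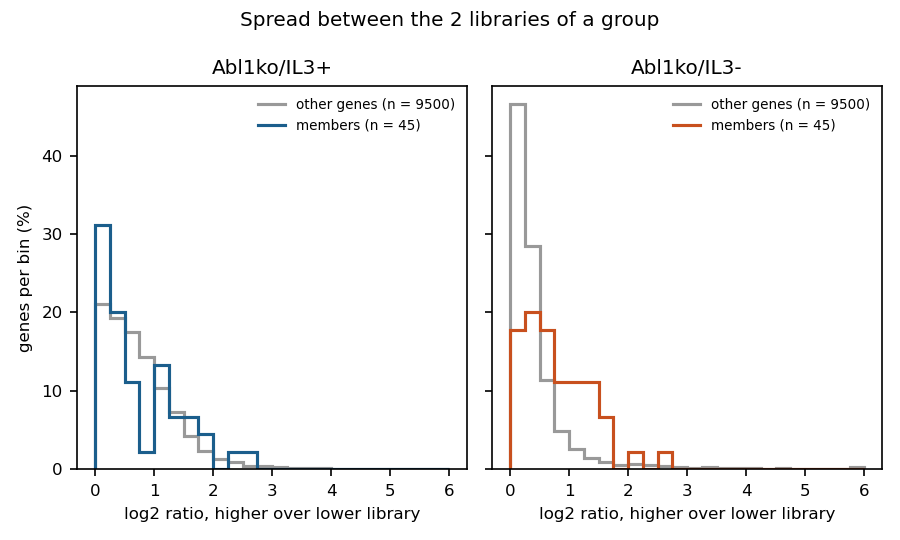
Ratio of the higher to the lower library of a group on the log2 scale, as the percentage of genes per bin of 0.25, for the 45 members (coloured) and the other 9500 genes with at least 5 CPM in both Abl1ko/IL3+ libraries (grey). The members' median ratio was 1.64 against 1.21 without IL-3, and 1.41 against 1.55 with it.

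The members were scattered over 15 chromosomes, with 6 on the fullest and 0 on X or Y. No pair lay within 200 kb, and the closest, Tnfaip2 and Xrcc3, were 348 kb apart on chromosome 12. Of the 90 nearest genes at 5 CPM or more that flank the members without overlap, 0 were members, against 0.471% of all genes at that level. A set of this size shows nothing by holding none. The log2 fold changes of the flanking genes had a median of -0.17, against -0.09 for all genes at that level. Of the flanking genes 60 were below 0 and 30 above, and the share of all genes below 0 was not counted. Values under -1 were found for 8 flanking genes (8.89%), against 6.88% of all genes at that level. The lowest was Nim1k, 1833 bases from Hmgcs1, which was counted 1578 and 426 times with IL-3 and 91 and 103 times without it (-3.13 on the log2 scale), followed by B3galnt2 next to Gm7446 (-2.52) and Alox5 next to Zfp422 (-2.41). The groups of B3galnt2 overlapped, while Alox5 was counted 21428 and 4018 times against 1494 and 2615 times.

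Family members and complex partners were looked up for the coding members, from a list drawn up after the members were known. Of 65 such genes, 45 had at least 5 CPM in both Abl1ko/IL3+ libraries, and they belong to 19 members. Their median log2 fold change was -0.04, with 24 below 0 and 21 above. It was under -1 for 4 of them, Pip5k1a, Pip5k1b, Rad51d and Cnnm4, and over 1 for Ptbp2 alone. The members themselves began at -2.47, a range set by the rule that picked them. Of the relatives and flanking genes, only Nim1k and B3galnt2 reached it. Since members are 0.471% of all genes at that level, this says little about relatives or neighbours.

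**Figure D4:**
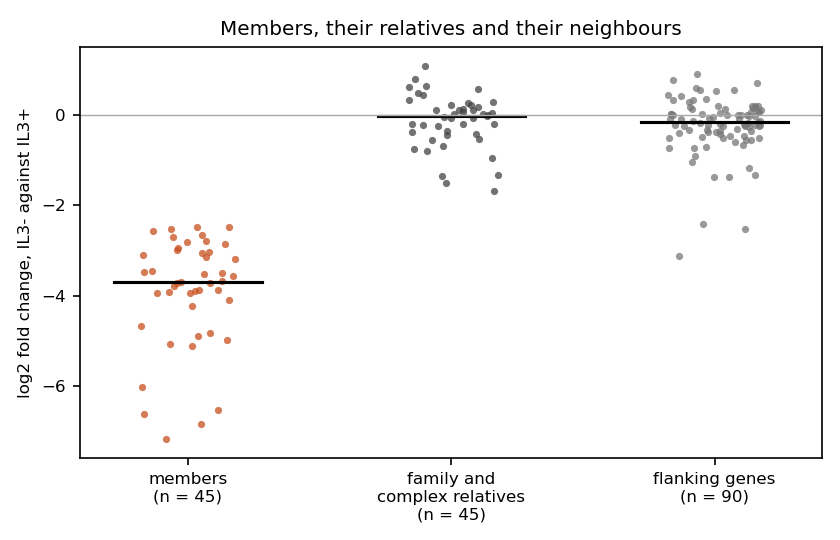
Log2 fold change (edgeR), Abl1ko/IL3- against Abl1ko/IL3+, of the 45 members, of 45 family and complex relatives and of 90 flanking genes, each point 1 gene and each line a median. Medians are -3.70, -0.04 and -0.17, and the relatives reach from -1.69 to 1.08.

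The receptor for IL-3 was also measured. Il3ra, the specific chain, was counted 2456 and 6380 times with IL-3 and 4877 and 3409 times without it, and the beta chain genes Csf2rb and Csf2rb2 30196 and 16108 against 15487 and 3224 times and 90923 and 20532 against 23221 and 26881 times. In CPM the groups overlapped for each of the 3 genes. Of the IL-3 receptor, JAK-STAT5 and target list, 28 genes had at least 5 CPM in both Abl1ko/IL3+ libraries and 0 were members, and with 0.471% of all such genes being members a list of this size shows nothing by holding none. The log2 fold changes of the 32 tested genes of the list, 17 below 0 and 15 above, had their median at -0.12. By edgeR 0 of the 32 had an adjusted p under 0.05, against 0% of all genes.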

How the data were processed

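RNA-seq was performed on total RNA depleted of ribosomal RNA, on an Illumina HiSeq instrument, in 2 Abl1ko/IL3+ and 2 Abl1ko/IL3- libraries, grouped by their labels. The deposited counts per gene are raw. The study's methods name Rsubread, with GRCm38, and featureCounts for alignment and counting by the authors. The authors also deposited FPKM values, which are scaled by length and depth and enter no test here. The submitters' processing notes name STAR, Cuffdiff and mm10 without their role, so which tool made the counts is not settled. Versions, strand and the handling of pairs and of reads in shared exons are not given in the sources used here, so counts of overlapping genes and of near-identical copies are uncertain.

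From the counts, CPM were computed over the column totals, and members were picked at 5 CPM, 4-fold and an offset of 0.05 CPM. All genes were fitted with edgeR 4.0.16 (filterByExpr, TMM, quasi-likelihood F test, two-sided, threshold 0.05) in R 4.3.3, and with DESeq2 1.42.0 as an alternative. The fits were also run on simulated counts as a check of the code, which is not used as support for the calls. Standard errors were derived from the fold change and F. Transcripts of GENCODE release M21 were compared with blastn 2.17.0, and promoters came from RefSeq. The spans of 40 members equal those of release M21.

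The members and all lists were chosen with earlier results of these data known. Genes given in full are the 20 members of largest separation, members on a gene list, the 5 with the highest lower Abl1ko/IL3+ CPM and 3 on each side of the 4-fold limit. The other members were named after their values were seen, so that each is accounted for. Role groups, relatives and flanking genes were likewise drawn up afterwards. Alternatives were other library sizes, limits and offsets, no filter or a stricter one, a replicate block, and leaving out each library. Some results on single genes are not reported here.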

Additional observations from a re-analysis of the deposited data

How the results depend on the processing

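The number of members was 26 at 6-fold and 11 at 10-fold, and between 37 and 58 under the other limits, offsets and library sizes. With each library left out in turn, the rule kept between 101 (without Abl1ko/IL3+ replicate 1) and 277 genes (without Abl1ko/IL3+ replicate 2), with 116 without Abl1ko/IL3- replicate 1 and 191 without Abl1ko/IL3- replicate 2. By construction these hold the 45 members, since fewer libraries have to agree. The count of genes called by edgeR was 0 with the library size only, with no filter and with 10 counts in every library, and with 1 library left out it ranged from 0 to 22, the highest without Abl1ko/IL3- replicate 1 and 1 without Abl1ko/IL3- replicate 2, where the lone library is assumed to vary like the other group. DESeq2 called 271, and the cause of the difference was not tested. The members' median log2 fold change was between -3.73 and -3.66 under the other tools and library sizes and the replicate block, and from -4.09 to -3.30 with 1 library left out. All 315 fold changes of the 45 members under these alternatives were below 0, the least at -2.10. The rule's 4-fold gap between every library of the 2 groups largely fixed this in advance, so it is no check on the members. Among the 26 members given in full, leaving out 1 library moved the fold change of 15 by over 1.5 times, most for Gemin4 (2.98 times). The other members were refitted as well but not counted for this.

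For each gene, how far a library lay from the average of its group was compared between libraries of equal number. The correlation was weak, at r = -0.21 across 16535 genes. With 2 libraries per group and genes that are not independent, it cannot decide whether equal numbers mark paired libraries. The replicate block gave 0 calls by edgeR and 548 genes at an unadjusted p under 0.05, against 978 without it. The crossed pairing, added after seeing the data, gave 0 calls and 1136 such genes. With 2 libraries per group and members chosen on these same libraries, their differences have no independent check.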
